A study of Caenorhabditis elegans with 8 samples.

Results

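Aminoacyl-tRNA synthetases load tRNAs with their amino acids, and translation factors start, drive and regulate the ribosome that uses them. Their mRNAs were measured in whole Caenorhabditis elegans fed control RNAi or RNAi against ash-2, which encodes a component of an H3K4 methyltransferase complex acting on histones. Members were array features with exactly 1 gene symbol of the synthetase form (a letter for the amino acid followed by ars) or of the families eif, ifg, inf, iff, iffb and eef, with glp-4 added because it encodes the cytosolic valyl-tRNA synthetase under another name. This gave 65 genes of 25478 genes with such a feature, namely 33 synthetases and 32 factors, each read by 1 feature. Of the synthetases, 21 were grouped as cytosolic and 11 as mitochondrial, and the compartment of yars-2, a tyrosyl-tRNA synthetase, was not assigned. Each gene was placed in 1 group only, so a gene that supplies both compartments was not told apart. The factors comprised 3 subunits of eIF2, 5 of eIF2B, 10 of eIF3, 2 members of eIF4F, 2 of eIF5A and 4 elongation factors. The 6 others included the ribosome anti-association factor eif-6 and the exon junction helicase eif-4A3. Sequences and proteins were not used here, and annotated gene positions served only for the order of genes.

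The study crossed 4 strains with 2 RNAi treatments, and each of the 8 groups was 1 Affymetrix C. elegans Gene 1.0 ST array. N2 is the wild-type laboratory strain, and the labels place its RNAi in the whole body. The labels place RNAi in the intestine for VP303, in muscle for NR350 and in neurons for TU3401. As background from general knowledge of these strains, VP303 and NR350 are rde-1 mutants in which an rde-1 transgene restores RNAi under the nhx-2 or the hlh-1 promoter, and TU3401 is a sid-1 mutant with sid-1 restored under the unc-119 promoter. The transgenes and mutations were thus present in the control arrays of these strains too. All worms were kept at 20 °C and fed the RNAi bacteria for 3 days, from the egg to the young adult. RNA came from whole animals in every group, so a tissue label names where RNAi can act and not which cells were sampled. In such bulk samples fewer cells of a type and less RNA per cell cannot be told apart.

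Each cytosolic synthetase charges the tRNAs of 1 amino acid, and the enzymes fall into a class I and a class II that differ in the fold of their catalytic site. Initiation begins when eIF2 with GTP brings the initiator tRNA to the small ribosomal subunit, on a scaffold formed by eIF3, while eIF4G (IFG-1) and the helicase eIF4A (INF-1) load the mRNA. eIF5B (IFFB-1) then joins the subunits, and eIF2B recharges eIF2 with GTP, the step that stress kinases block by phosphorylating eIF2 alpha. Elongation factor eEF1 delivers charged tRNAs, eEF2 moves the ribosome along, and eIF5A helps it past difficult peptide bonds. In C. elegans, glp-4 is best known from a temperature-sensitive allele whose animals make almost no germ cells, and iff-1 is known as the germ line form of eIF5A.

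The deposited values were linear intensities between 18.01 and 12880, and array medians lay between 21.1 and 21.6. All values below are log2 of these intensities, and a difference is the ash-2-labelled array minus the control array of the same strain unless stated otherwise. Of all 27792 features, 31.3% had a mean intensity above 32, and 8648 had a mean log2 value above 5, the log2 of 32. Of the members, 64 were above that level and aars-1, the mitochondrial alanyl-tRNA synthetase, was under it on all 8 arrays with a mean of 4.40. The number of arrays limits the precision. With 1 array per group, tests of the response used the 4 strains as the only repeats. Nothing in the labels says how many cultures each array pooled. The target itself did not follow its label. The ash-2 feature was higher in the ash-2-labelled array in all 4 strains. The difference ran from 0.29 in N2 through 0.65 (VP303) and 0.69 (TU3401) to 0.89 (NR350) (mean 0.63 ± 0.25, SD, n = 4 strains, limma adjusted p = 0.302). Where the feature lies relative to the RNAi fragment is not given in the labels, and the arrays are called by their label throughout.

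The synthetases as a group were higher in the ash-2-labelled arrays, most of all in TU3401. Their median difference ran from 0.08 (N2) and 0.10 (VP303) to 0.18 (NR350) and 0.32 (TU3401), where features with mean log2 above 5 had medians of 0.04, 0.04, -0.01 and 0.03. In TU3401 31 of the 33 synthetases (93.9%) were higher, including all 21 cytosolic enzymes. The shares were 48.6% for all features and 54.9% for those above log2 5. The TU3401 control was the lowest of the 8 arrays for glp-4, cars-1, ears-1 and lars-1, at 7.58, 6.73, 6.39 and 6.90. Against N2, the median fitted synthetase difference of TU3401 was -0.02, or 0.11 without its control and -0.20 without its ash-2-labelled array. Across strains, 13 synthetases (39.4%) were higher in all 4 and 0 were lower in all 4. Of all features 7.72% were higher and 8.34% lower in all 4 strains, and of features above log2 5 the shares were 13.7% and 7.2%. No single synthetase passed the test of a shared response, a limma fit with strain as block and Benjamini-Hochberg adjustment over all features, in which 0 features passed at 0.05. At an unadjusted p under 0.05, 10 synthetases were higher and 0 lower, beside 3.75% higher and 4.25% lower of all features. Among the 8648 features above log2 5, 718 were higher and 508 lower at that p. With the arrays centred on their medians the background of all features, 1041 higher and 1180 lower, became 1344 and 849. The synthetases were then 11 higher and 0 lower.

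**Figure D1:**
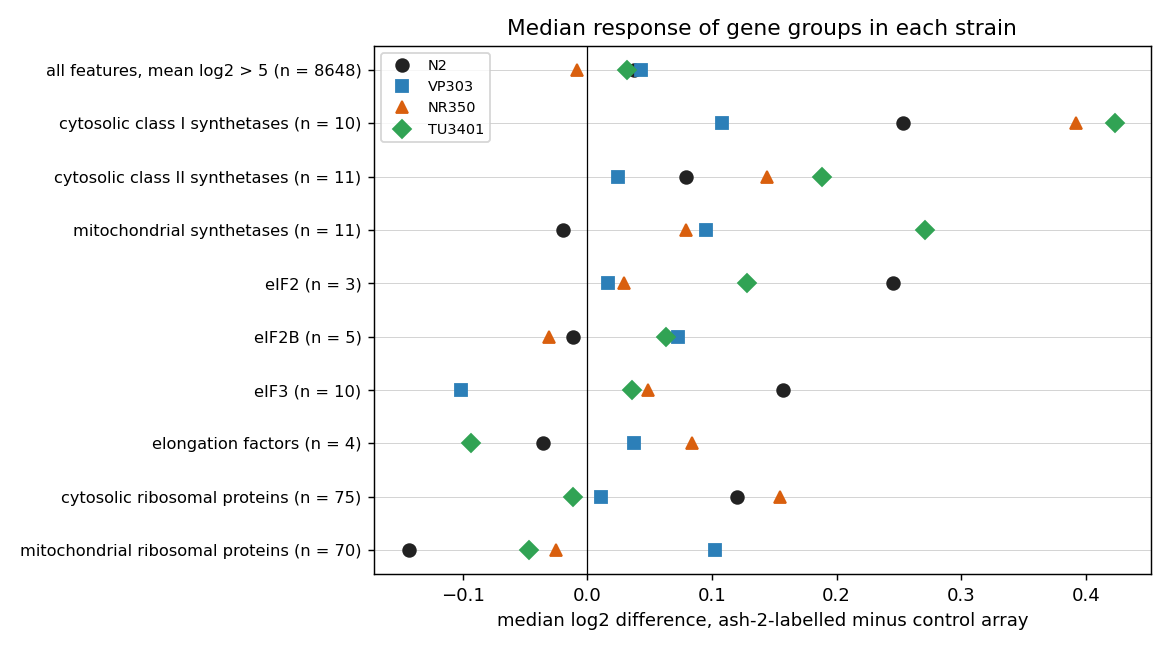
Median log2 difference (ash-2-labelled minus control) in each of the 4 strains for groups of members and reference lists, 1 array against 1 array. The cytosolic class I synthetases lie highest in NR350 and TU3401, at 0.39 and 0.42, while mitochondrial ribosomal proteins lie at -0.03 and -0.05.

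The highest synthetase was glp-4. Its log2 level was 7.82 in the N2 control and 8.15 in the N2 ash-2-labelled array, 8.60 and 8.71 in VP303, 8.55 and 9.28 in NR350, and 7.58 and 8.51 in TU3401. The gain was thus small in VP303, at 0.11, and large in NR350 and TU3401, at 0.73 and 0.93. The mean was 0.52 ± 0.37 (SD, n = 4 strains), a 1.44-fold difference that did not pass (limma adjusted p = 0.418). The cysteinyl enzyme cars-1 went from 6.95 to 7.26 in N2, from 6.95 to 7.12 in VP303, from 6.94 to 7.48 in NR350 and from 6.73 to 7.49 in TU3401. Its control arrays spanned 6.73 to 6.95, and every ash-2-labelled array lay above all of them (mean difference 0.44 ± 0.26, SD, n = 4 strains, limma adjusted p = 0.430). The glutamyl enzyme ears-1 went from 6.47 to 6.84 in N2, from 6.82 to 6.86 in VP303, from 6.69 to 7.17 in NR350 and from 6.39 to 7.21 in TU3401 (mean 0.42 ± 0.32, limma adjusted p = 0.495). The leucyl enzyme lars-1 differed by 0.26, 0.05, 0.38 and 0.71 in the same order of strains (mean 0.35 ± 0.28, limma adjusted p = 0.548). For all of these enzymes VP303 gave the smallest difference and TU3401 the largest.

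Among the mitochondrial enzymes dars-2, which charges aspartate, had the most even response, with differences of 0.36, 0.31, 0.31 and 0.32 in N2, VP303, NR350 and TU3401 (mean 0.32 ± 0.02, SD, n = 4 strains, limma adjusted p = 0.322). It was also dim, under an intensity of 32 on 3 arrays. The mitochondrial enzymes as a group had medians of -0.02, 0.10, 0.08 and 0.27, and 2 of 11 were higher in all 4 strains. The cytosolic enzymes had medians of 0.13, 0.11, 0.19 and 0.34, and 10 of 21 were higher in all 4. Within the cytosol the class I enzymes, among them those for valine, leucine, cysteine and glutamate, had medians of 0.25, 0.11, 0.39 and 0.42, and 7 of 10 were higher in all 4 strains. For the class II enzymes the medians were 0.08, 0.02, 0.14 and 0.19, and 3 of 11 were higher in all 4. The enzymes whose mammalian counterparts form the multi-synthetase complex had medians of 0.16, 0.11, 0.38 and 0.34 over 9 genes, beside 0.10, 0.07, 0.19 and 0.29 over the other 12 cytosolic genes. None of these differences between groups of enzymes was tested.

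The enzymes did not move alike in every strain. Both fars-1 and fars-3 encode chains of the cytosolic phenylalanyl-tRNA synthetase, yet in N2 fars-1 was lower by 0.51 in the ash-2-labelled array while fars-3 was 0.45 higher. In TU3401 they were 0.14 and 0.64 higher. The histidyl enzyme hars-1 was 0.43 lower in N2, from 7.34 to 6.91, and 0.27 higher in VP303, from 6.90 to 7.17. In VP303 the lowest were nars-2 (mitochondrial asparagine) and wars-1 (tryptophan), at -0.38 and -0.29, and vars-1 (mitochondrial valine) was at 0.28. In NR350 the lowest were rars-2 (mitochondrial arginine) at -0.17 and tars-1 (threonine) at -0.14. In TU3401 only nars-2 and lars-2 (mitochondrial leucine) were lower, at -0.17 and -0.05. For single strains, with 1 array against 1, no test was possible.

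**Figure D2:**
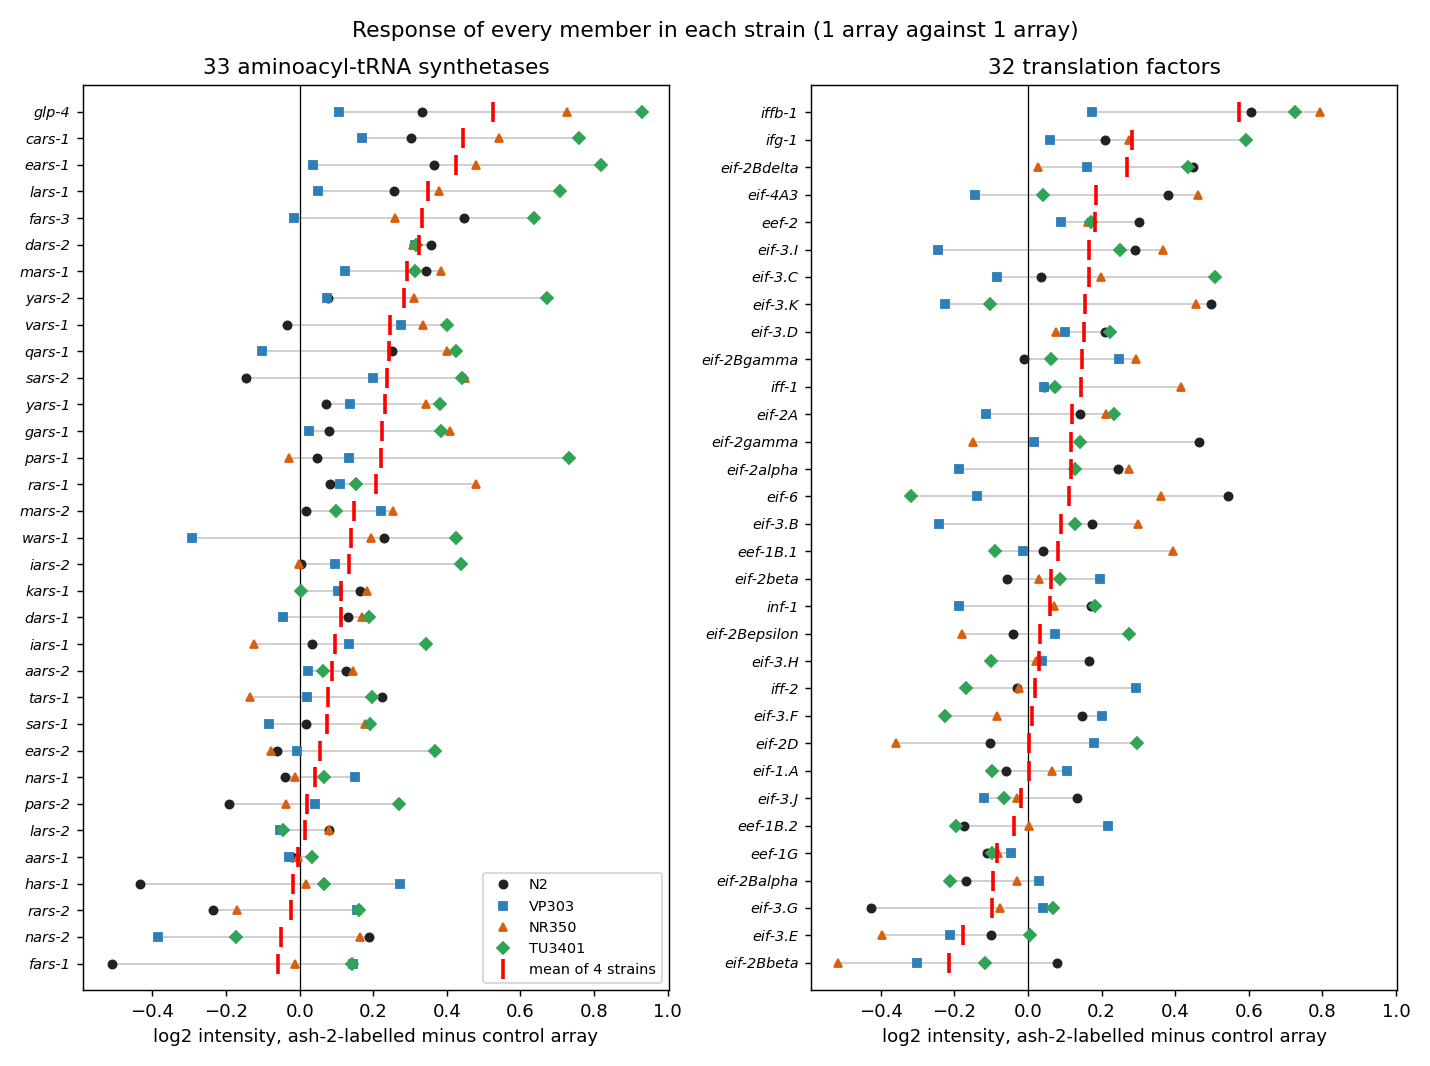
Log2 difference (ash-2-labelled minus control) of each of the 65 members, synthetases and factors apart, with 1 point per strain and a bar at the mean of the 4 strains. The points of glp-4 spread from 0.11 in VP303 to 0.93 in TU3401, those of dars-2 from 0.31 to 0.36, and all 4 points of eef-1G lie below 0.

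Differences past 1.5-fold were most frequent in TU3401. There 7 synthetases (21.2%) were higher by that much, namely glp-4, ears-1, cars-1, pars-1 (proline), lars-1, yars-2 and fars-3, beside 0.957% of all features and 3.03% of those above log2 5. In NR350 glp-4 alone was past 1.5-fold among the synthetases, beside 0.306% of all features. In N2 and VP303 the count was 0, beside 0.468% and 0.515%. No synthetase was lower past 1.5-fold in any strain, where the shares of all features were 1.02% (N2), 0.651% (VP303), 0.777% (NR350) and 0.723% (TU3401). In TU3401 pars-1 went from 7.53 to 8.26, the lowest and the highest of its 8 arrays. TU3401 held the highest of the 4 differences for 19 of the 33 synthetases and VP303 the lowest for 16. The same count was not made over all features, so no background share stands beside it.

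For the factors the median differences were 0.14 (N2), 0.03 (VP303), 0.07 (NR350) and 0.07 (TU3401). Across strains, 6 factors (18.8%) were higher in all 4, and eef-1G alone was lower in all 4. At an unadjusted p under 0.05 in the shared fit 4 factors were higher and 0 lower, and 0 passed after adjustment. The same background holds here, with 3.75% of all features higher and 4.25% lower at that p. Of the 8648 features above log2 5, 718 were higher and 508 lower at that p. In all 4 strains, 7.72% of all features and 13.7% of those above log2 5 were higher. TU3401 was the strain with the highest difference for 9 factors and the lowest for 8, again without a count over all features.

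The factor with the largest difference was iffb-1, which encodes eIF5B. Its log2 level went from 6.20 to 6.80 in N2, from 6.43 to 6.61 in VP303, from 6.69 to 7.48 in NR350 and from 6.33 to 7.05 in TU3401. It was the only factor past 1.5-fold in N2 and in NR350, and in TU3401 ifg-1 was too. The mean was 0.57 ± 0.28 (SD, n = 4 strains), a 1.49-fold difference (limma adjusted p = 0.303). The eIF4G scaffold ifg-1 differed by 0.21, 0.06, 0.27 and 0.59 in the same order of strains (mean 0.28 ± 0.22, limma adjusted p = 0.599). Its partner helicase inf-1 differed by 0.17, -0.19, 0.07 and 0.18. The translocation factor eef-2 went from 11.72 to 12.02 in N2, from 11.84 to 11.93 in VP303, from 11.98 to 12.14 in NR350 and from 11.84 to 12.01 in TU3401 (mean 0.18 ± 0.09, limma adjusted p = 0.448). The elongation factor subunit eef-1G was lower by small amounts in every strain, with differences of -0.11, -0.05, -0.08 and -0.10 (mean -0.08 ± 0.03, limma adjusted p = 0.700). The exchange subunits eef-1B.1 and eef-1B.2 had mean differences of 0.08 and -0.04.

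Within eIF2B and eIF3 the subunits differed in direction. In eIF2B, eif-2Bdelta differed by 0.45, 0.16, 0.03 and 0.43 in N2, VP303, NR350 and TU3401 (mean 0.27 ± 0.21, limma adjusted p = 0.573), whereas eif-2Bbeta differed by 0.08, -0.30, -0.52 and -0.12. The 5 eIF2B subunits had medians of -0.01, 0.07, -0.03 and 0.06. The 3 subunits of eIF2 had medians of 0.25, 0.02, 0.03 and 0.13. In eIF3 the medians were 0.16, -0.10, 0.05 and 0.04, and eif-3.D was the 1 subunit of 10 that was higher in all 4 strains. The core subunit eif-3.C differed by 0.51 in TU3401 and by 0.03 in N2, eif-3.E by -0.40 in NR350 and 0.00 in TU3401, and eif-3.G by -0.43 in N2. In VP303 eif-3.I was among the lowest factors at -0.24. The ribosome anti-association factor eif-6 differed by 0.54, -0.14, 0.36 and -0.32. The exon junction helicase eif-4A3 differed by 0.38, -0.14, 0.46 and 0.04.

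The 2 forms of eIF5A differed in pattern. The germ line form iff-1 differed by 0.04, 0.04, 0.42 and 0.07 in N2, VP303, NR350 and TU3401, with its control in NR350 the lowest array at 8.80. The somatic form iff-2 differed by -0.03, 0.29, -0.02 and -0.17 (mean 0.02 ± 0.20, limma adjusted p = 0.971). The paralogues of eEF1 alpha, eef-1A.1 and eef-1A.2, shared both of their features and so were outside the rule. Those 2 features differed from each other, with 0.48, 0.34, 0.35 and -0.10 on one and 0.39, -0.15, -0.16 and 0.59 on the other, so no direction is given for eEF1 alpha. The start-codon factor eif-1 shared its feature with pigb-1, which differed by -0.15, -0.11, -0.22 and -0.19. The feature carrying fars-2 was listed with that symbol repeated and differed by -0.35, -0.00, -0.20 and -0.32.

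**Figure D3:**
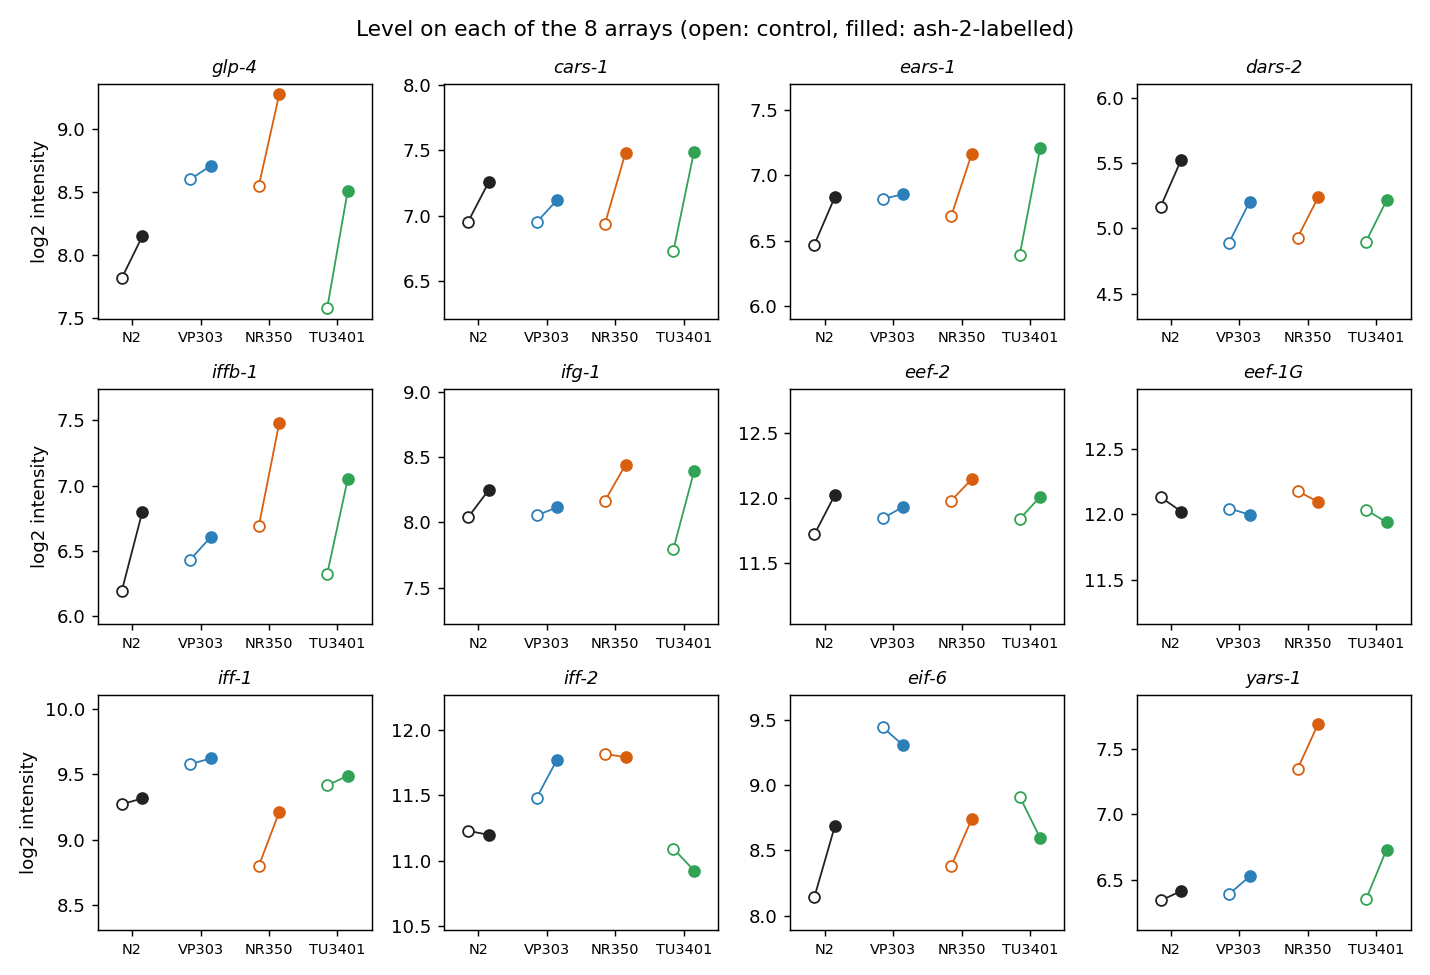
Log2 intensity on each of the 8 arrays for selected members, with the pair of arrays from each strain side by side. glp-4 runs from 7.58 to 9.28, yars-1 stands apart in NR350 at 7.35 and 7.69, and eif-6 is highest in VP303 at 9.44 and 9.30.

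The strains were also compared as N2 and VP303, where the labelled site of RNAi includes the intestine, against the other 2 strains, NR350 and TU3401. In this contrast the synthetases responded less in N2 and VP303, with a median contrast of -0.19, and the factors had a median of 0.01. Both N2 and VP303 lay below both other strains for 14 of 33 synthetases (42.4%) and above them for 0, beside 18.2% and 16.5% of all features. For the factors these counts were 5 (15.6%) and 2 (6.25%). No feature passed the limma test of this contrast, and at an unadjusted p under 0.05 it gave 2 synthetases and 0 factors, all lower in N2 and VP303, beside 2.76% of features lower and 2.98% higher. The response of glp-4 was 0.22 as the mean of N2 and VP303 and 0.83 as the mean of NR350 and TU3401, a contrast of -0.61 (SE 0.22, limma adjusted p = 0.810). For ears-1 the means were 0.20 and 0.65 (contrast -0.45), for iffb-1 0.39 and 0.76 (contrast -0.37), and for eif-3.C -0.02 and 0.35 (contrast -0.38). The eIF3 subunits eif-3.F and eif-3.H went the other way, with contrasts of 0.33 and 0.14. N2 and VP303 differed from each other as well, since N2 had 0.33 for glp-4 where VP303 had 0.11.

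Other measured quantities moved beside the members. Response varied with annotated gene length, introns included. Among protein-coding genes above log2 5 the median difference in TU3401 was -0.10 for genes under 1000 bases and 0.19 for genes over 8000 bases, and in N2 it was -0.02 at 1000 to 2000 bases and 0.16 over 8000. In VP303 it stayed between 0.05 and 0.06 and in NR350 between -0.04 and 0.03. The median length was 3547 bases for synthetases, 4852 for the cytosolic class I enzymes, 2262 for class II, 2211.5 for factors and 2606 for the coding genes. The members with the 2 largest mean differences, iffb-1 and glp-4, were 12466 and 11288 bases long, and nars-2, at 12393 bases, and mars-2, at 9636 bases, had mean differences of -0.05 and 0.15. Synthetases of 4000 to 8000 bases had medians of 0.25, 0.05, 0.38 and 0.44 in N2, VP303, NR350 and TU3401 over 7 genes, where coding genes of that length had 0.10, 0.06, 0.02 and 0.15. In the shortest band that held synthetases, 1000 to 2000 bases, the 3 enzymes had 0.02, -0.01, 0.18 and 0.37. The 0.37 was that of ears-2, under an intensity of 32 on 5 arrays. Coding genes of that length had -0.02, 0.05, -0.04 and -0.06. At 2000 to 4000 bases 18 synthetases had 0.08, 0.12, 0.16 and 0.19, and coding genes 0.03, 0.06, -0.02 and 0.05. Over 8000 bases 4 synthetases had 0.13, 0.12, 0.30 and 0.24, and coding genes 0.16, 0.05, 0.03 and 0.19. Among 10 germ line markers the median difference was 0.15, 0.00, 0.09 and 0.23, and their summed intensity went from 11030 to 12800 in N2, from 10750 to 10780 in VP303, from 12220 to 13170 in NR350 and from 10220 to 12150 in TU3401. The 10 oocyte and eggshell markers had medians of 0.29, -0.02, -0.06 and -0.03, and the 6 sperm markers were all under an intensity of 32 on average. The 8 body muscle markers had medians of 0.30, 0.14, 0.24 and 0.05, the 10 intestinal markers 0.15, 0.08, 0.12 and 0.04, and the 8 neuronal markers 0.08, -0.00, -0.01 and -0.08, with 0 of them higher in TU3401. The 6 epidermal markers had medians of 0.06, -0.03, -0.01 and -0.06. The part of gene length and of RNA from these tissues in the response of the synthetases was not tested.

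**Figure D4:**
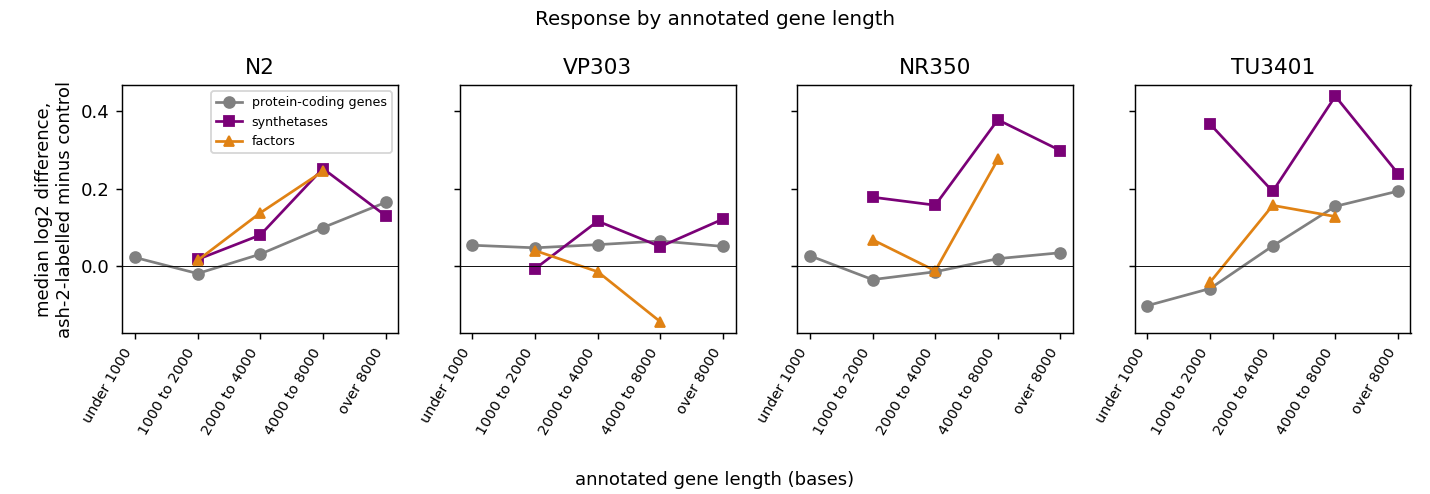
Median log2 difference (ash-2-labelled minus control) by annotated gene length in each strain, for protein-coding genes with mean log2 above 5 and for synthetases and factors where a band held at least 3 of them. In TU3401 coding genes run from -0.10 under 1000 bases to 0.19 over 8000. Synthetases of 4000 to 8000 bases lie at 0.44 there and those over 8000 bases at 0.24.

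The other genes of translation gave a frame for these values, and none of them passed the shared test. Counts of higher and lower genes are at its unadjusted p under 0.05. At that p 3.75% of all features were higher and 4.25% lower. Of the 8648 features above log2 5, 718 were higher and 508 lower. The 75 cytosolic ribosomal protein genes had medians of 0.12, 0.01, 0.15 and -0.01, with 8 above 0 and 1 below 0 among those at an unadjusted p under 0.05. Their extremes were rpl-23, with a mean difference of 0.42 ± 0.34, and rpl-29, at -0.27 ± 0.25 (SD, n = 4 strains). The 70 mitochondrial ribosomal protein genes had medians of -0.14, 0.10, -0.03 and -0.05, with 1 higher and 4 lower, and their extremes were mrps-5 at 0.36 ± 0.04 and mrps-34 at -0.39 ± 0.22. Among 13 of 14 listed controllers of initiation and elongation the median mean difference was 0.11, with 6 higher and 1 lower. There gcn-1, the activator of the eIF2 kinase that senses uncharged tRNA, had differences of 0.63, -0.01, 0.71 and 0.95 (limma adjusted p = 0.417), and raga-1, a Rag GTPase of the TORC1 pathway, had 0.01, -0.29, -0.28 and -0.51. Among the 10 cap-binding genes 0 were higher and 1 lower, with ncbp-1 at 0.23 and ife-4, an eIF4E, at -0.21.

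Genes of ribosome synthesis were represented by 6 of 7 listed genes. Of these 2 were higher at an unadjusted p under 0.05, beside 3.75% of all features. The RNA polymerase I subunit rpoa-2 had differences of 0.20, 0.38, 0.45 and 1.09, and fibrillarin, fib-1, had -0.12, -0.11, 0.10 and -0.25. For tRNA processing, 8 of 9 listed genes were measured, with the tRNA exporter xpo-3 at a mean of 0.25 and the Elongator subunit elpc-3 at -0.06. The 3 of 4 measured genes of termination and recycling lay between erfa-3 at 0.08 and erfa-1, a release factor, at 0.19. The 4 of 7 measured mitochondrial translation factors lay between tsfm-1 at -0.24 and gfm-1 at 0.14. In gcn-1 as in glp-4, VP303 had the lowest and TU3401 the highest difference, a description with no test.

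Differences between strains, whatever the RNAi, were larger than the response for a few members. Each strain was compared with N2 in the same limma fit, in which its control and its ash-2-labelled array both entered, with treatment as a term. No group was repeated, so these p-values do not measure the spread between repeated cultures of a strain. In NR350 5 members were higher and 0 lower, beside 4.02% of features higher and 3.16% lower. Of the 8648 features above log2 5, 788 were higher and 760 lower. The tyrosyl enzyme yars-1 rose most. Its log2 level was 7.35 and 7.69 in NR350, 6.34 and 6.41 in N2, 6.39 and 6.53 in VP303, and 6.35 and 6.73 in TU3401, so both NR350 arrays lay above all 6 others. Against N2 this was a 2.21-fold difference (log2 1.14, SE 0.15, limma adjusted p = 0.000953). The valyl enzyme glp-4 was 1.90-fold higher (log2 0.93, SE 0.20, limma adjusted p = 0.0160), and the mitochondrial methionyl enzyme mars-2, at 5.99 and 6.24 against 5.50 and 5.52, was 1.52-fold higher (limma adjusted p = 0.0115). The eIF3 subunit eif-3.J, at 10.36 and 10.33 against 9.52 and 9.65, was 1.69-fold higher (limma adjusted p = 0.00303), and iff-2, at 11.82 and 11.79 against 11.23 and 11.20, was 1.51-fold higher (limma adjusted p = 0.00676). Leaving out any 1 of the 4 arrays of N2 and NR350 left 2 calls. The call of yars-1 held in each case, that of eif-3.J was lost without the N2 control array (limma adjusted p = 0.0507), and that of iff-2 held only without that array. The calls of glp-4 and mars-2 were lost without any of the 4, with limma adjusted p between 0.0642 and 0.176 for glp-4 and between 0.0510 and 0.132 for mars-2.

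In VP303 and TU3401 0 members passed, beside 0.457% of features higher and 0.184% lower in VP303 and 0.374% and 0.23% in TU3401. The split of the calls in TU3401, 104 higher and 64 lower, became 109 and 34 after quantile normalization and 90 and 85 after median centring. The member nearest to passing was eif-6 in VP303, at 9.44 and 9.30 against 8.14 and 8.69 in N2 (log2 difference 0.96, SE 0.20, limma adjusted p = 0.0718). In VP303 glp-4 was 0.67 higher (limma adjusted p = 0.227), with 8.60 and 8.71 against 7.82 and 8.15. Both the NR350 arrays lay above both N2 arrays for 14 of 33 synthetases and below them for 6, and for the factors these counts were 4 and 9 of 32, beside 23.9% of features above and 23.6% below. Tissue markers also differed in NR350. Of 8 body muscle markers 7 were higher there by the same test, and their summed intensity was 6943 and 8197 in NR350 against 3477 to 4551 on the other arrays. Of 10 intestinal markers 6 were higher, with sums of 8623 and 9235 in NR350 against 7534 to 10020 elsewhere, and of 10 germ line markers 0 were higher and 1 was lower. Of 6 epidermal markers 3 were higher in NR350 and 2 in VP303. Their sums were 3710 and 3910 in NR350, 8063 and 8040 in VP303, and 2399 and 2827 in N2. The median difference of these 6 from N2 was 0.25 in VP303 and 0.56 in NR350. The larger sum in VP303 was thus not shared alike by the 6 markers, among which was rol-6. The part of these tissues in the 5 calls was not tested.

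Of these 5 members, 4 lay close together on chromosome I. The genes eif-3.J, glp-4, yars-1 and mars-2 held places 1328, 1340, 1413 and 1414 in the order of the 1470 protein-coding genes of that chromosome with mean log2 above 5, as RefSeq annotates them, so yars-1 and mars-2 were next to each other in this order. Their neighbours were higher in NR350 as well. Over the 20 nearest genes, 10 on each side, the median difference from N2 was 0.59 around glp-4, with 20 of 20 higher, 0.54 around yars-1 and mars-2, with 19 of 20 higher, and 0.43 around eif-3.J, with 14 of 20 higher. In VP303 the neighbours of eif-6, at place 1296, had a median of 0.50, those of eif-3.J 0.54 and those of glp-4 0.57. Those of yars-1 had 0.01 in VP303, and those of eif-6 had -0.04 in NR350. The mitochondrial prolyl enzyme pars-2, at place 1249, was only 0.27 higher in VP303 and 0.18 in NR350, with neighbours at 0.36 and 0.55. In TU3401 the neighbours of all of these genes lay between -0.06 and 0.02. By contrast iff-2, on chromosome II, had neighbours with a median of -0.09 in NR350.

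**Figure D5:**
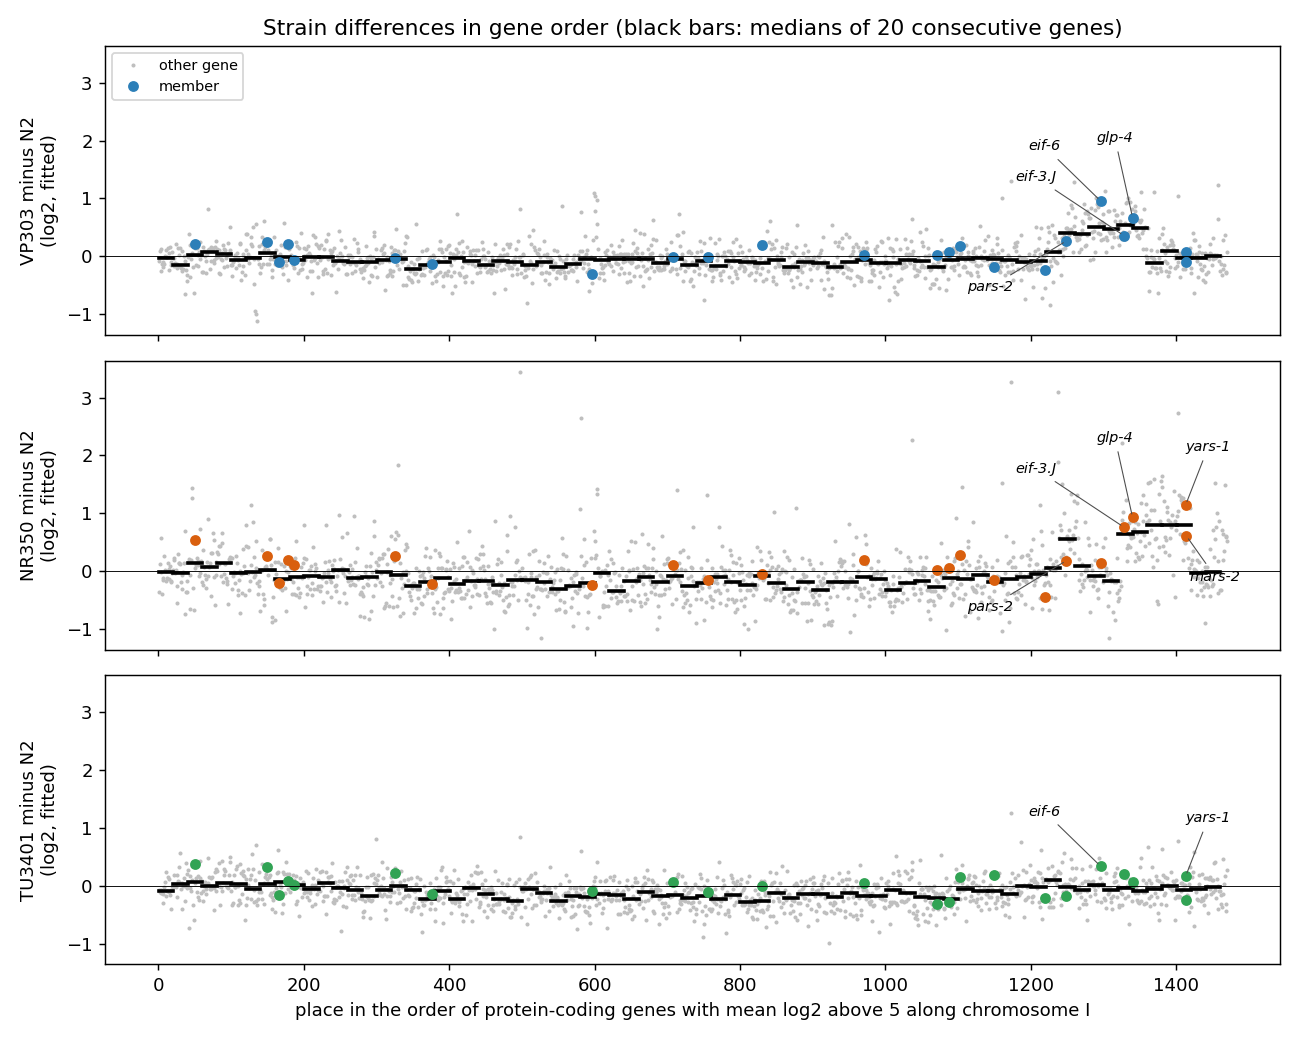
Fitted log2 difference from N2 for each protein-coding gene with mean log2 above 5 along chromosome I, in gene order, for VP303, NR350 and TU3401, with members as large points and black bars at medians of 20 consecutive genes. Raised stretches near the end of the order hold glp-4 in VP303 and NR350 and yars-1 in NR350, and TU3401 has none.

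Raised stretches were also seen over all genes. Across the genome 381 windows of 20 consecutive genes were formed, a width and a cut-off of 0.35 chosen after the data had been seen. In VP303 6 windows had a median above the cut-off and all 6 were on chromosome I, with a highest median of 0.54 against 0.17 on other chromosomes. In NR350 7 windows were above it, 6 of them on chromosome I, with a highest median of 0.79 against 0.37 elsewhere. The VP303 windows were 63 to 68 of that chromosome, without a break. In NR350 window 63 had 0.55, windows 64 to 66 had 0.08, -0.09 and -0.17, and windows 67 to 71 had 0.64 to 0.79. Past the cut-off in the lower direction there was 1 window in NR350. In TU3401 0 windows were above it. Relative to its neighbours glp-4 was 0.10 higher in VP303 and 0.34 higher in NR350, yars-1 0.60 higher and mars-2 0.07 higher in NR350, and eif-6 0.46 higher in VP303. The difference of eif-3.J from its neighbours was -0.18 in VP303 and 0.33 in NR350, and that of pars-2 was -0.09 and -0.37. The cause of the raised stretches was not tested, and DNA was not measured. In the response to ash-2 RNAi, the 20 neighbours of glp-4 had medians of 0.09, 0.10, 0.06 and 0.06 in the usual strain order. The gene glp-4 itself had 0.33, 0.11, 0.73 and 0.93. The neighbours of yars-1 and mars-2 had 0.06, -0.02, 0.12 and 0.11. Those of eif-3.J had 0.06, 0.04, -0.09 and 0.01, and those of eif-6 had 0.02, 0.13, -0.03 and 0.11. The part of gene position in the response was not tested.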

How the data were processed

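RNA of whole worms was measured on 8 gene-level expression arrays, 1 per group. The authors deposited linear intensities, made with RMA per the submitters' processing notes; per the series' design text, images were read with Affymetrix Command Console 2.0 and profiles presented in GeneSpring GX 11.0.2. Which genome build the authors used is not given in the sources. Symbols came from the platform annotation, and names, biotypes, lengths and gene order from RefSeq WBcel235, which matched all 65 members. No sequence was used, and annotated start positions served only to order the genes.

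Intensities were log2 transformed with nothing added and no filter. limma 3.58.1 in R 4.3.3 (lmFit, eBayes with trend, two-sided) was fitted over 27792 features, with Benjamini-Hochberg adjustment and a threshold of 0.05. The shared response and the strain differences came from a fit with treatment and strain (3 residual degrees of freedom), and the contrast of N2 and VP303 with NR350 and TU3401 from one with a response per class (2 residual degrees of freedom). The strain pairs the arrays by design, and the deviations of the 2 arrays of a strain correlated at 0.525 to 0.839. For the response, strains thus stand in for replicates. For the strain differences, the residual is how far the treatment difference varied between strains. No p-value here measures the spread between repeated cultures of a strain. The fits were tested on simulated data. Other scalings, filters, priors and left-out arrays were tried.

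Members named with values were glp-4, iffb-1, the eIF5A and eEF1 alpha paralogues, the extremes of each group by mean difference among those with 1 direction in all strains, the extremes of each strain and of the class contrast, called members, and the extremes of each list. A few others, such as inf-1, eif-3.D and pars-1, were named after their values were seen. The members and lists were chosen with earlier results of these data known. Tables were made with Python 3.11.15.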

Additional observations from a re-analysis of the deposited data

Results flagged for a closer look

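The response of eif-3.F, a subunit of the eIF3 scaffold, had opposite signs in the 2 classes of strains. The ash-2-labelled array was higher by 0.15 in N2 and 0.20 in VP303, whereas the difference was -0.08 in NR350 and -0.23 in TU3401. The class difference was 0.329 on the log2 scale and did not pass the limma test (adjusted p = 0.898). For single strains, with 1 array against 1, the difference was not tested. No group held enough arrays for a check of single outlying arrays.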

How the results depend on the processing

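The limits of these data are 1 array per group and strains as the only repeats of the response. Signal was also low for the mitochondrial enzymes aars-1, dars-2, ears-2 and lars-2 and for eif-2Bgamma. The labels carry no replicate numbers, and the fit of the shared response paired the arrays by strain. Taking the mean of all features of a gene changed nothing, since every member had 1. No member was called for the shared response or the class contrast under any setting run. Features called for the shared response were 2 with 1-symbol features only and 0 to 25 with 1 strain left out, the highest without TU3401. For the class contrast they were 56 with features above log2 5 only, 3 with 1-symbol features only, and 6 to 55 with 1 strain left out. In VP303 1 member, eif-6, was called with features above log2 5 only, with 1-symbol features only and with the 4 arrays of the 2 strains only. VP303 features called, 178 as reported, were then 283 above log2 5, 371 with the 4 arrays, 42 without a trend, 115 without a treatment term, and 52 to 80 with 1 array left out. In NR350 9 members were called with features above log2 5 only and 2 with any 1 array left out, where 685 to 984 features were called against 1995. The call of glp-4 there was also lost without a trend (adjusted p = 0.105) and without a treatment term (0.111), and that of iff-2 without a trend (0.0715). TU3401 features called, 168 as reported, were 39 without a trend, 288 with the 4 arrays, and 40 to 444 with 1 array left out. Direction turned for iff-2 in the shared response (-0.0741 without VP303, range -0.0741 to 0.0796), for iffb-1 in VP303 (-0.25 without the VP303 control array, range -0.25 to 0.29), for eif-6 in NR350 (-0.14 without the N2 control array and -0.02 without the NR350 ash-2 array, range -0.14 to 0.44) and for glp-4 in TU3401 (-0.07 without the N2 ash-2 array and -0.21 without the TU3401 ash-2 array, range -0.21 to 0.33). None of these 4 values had passed a test. The cause of these changes was not tested beyond the fewer features or arrays used. Over the results for single genes, 444 of the recomputed values kept direction and side of the threshold, 15 lost a call, 5 gained one and 6 turned direction. Over the counts of calls and the list medians, 146 recomputed values stayed the same and 34 moved. A count moved if it changed more than 1.5-fold or to or from 0, and a median if it changed by the SD over strains or more. With 1 strain left out, the median shared response was 0.10 to 0.18 for synthetases and 0.05 to 0.13 for factors.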
